A study of Mus musculus with 365 samples.

Results

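Ly6D+ progenitors high in Top2a, a transcript of dividing cells, were compared with Ly6D+ progenitors low in it, within the same capture chips. The first group is called cycling here and the second non-cycling. The Ly6D+ cells were sorted from bone marrow as a subset of EPLM, progenitors from which both lymphoid and myeloid cells can arise, and sequenced cell by cell. Cycling cells were chosen by their measured Top2a value, Top2a being the topoisomerase that untangles DNA before mitosis: the threshold was 25 CPM, a read count scaled to the total reads of its cell. By this rule 88 of the 152 Ly6D+ cells were cycling and 64 were non-cycling, of 365 cells in all. The cycling cells numbered 25, 32 and 31 on chips 4, 5 and 6, and the non-cycling cells 15, 28 and 21. The other 213 cells were TN ("triple negative") EPLM from 3 further chips, with 43, 44 and 44 cycling and 32, 25 and 25 non-cycling cells on chips 1, 2 and 3. All cells, Ly6D+ and TN alike, came from femur marrow of C57BL/6 mice with the Flt3Ltg transgene, so every group was exposed to the same extra Flt3 ligand and no wild type mouse is among them. Each label names a pool of 2 mice. No source used here states the age of the mice or the promoter that drives the transgene.

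Early lymphoid progenitors divide while they begin to express the B cell programme. The genes of that programme include the recombinases Rag1 and Rag2, which cut antigen receptor genes, the signalling subunits Cd79a and Cd79b of the B cell receptor, and the transcription factors Ebf1 and Pax5, which establish the B cell fate. In later B cell precursors recombination and division are known to alternate, since Rag2 protein is destroyed when a cell enters S phase. Flt3, Kit and Il7r are the growth factor receptors through which such progenitors survive and expand, and Irf8 and Siglech belong to the plasmacytoid dendritic cell programme that part of these cells can also follow.

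Top2a ranged over 28.5 to 7404 CPM in the cycling Ly6D+ cells, with a median of 836 CPM. The 3 cycling cells nearest the threshold had 28.5, 41.9 and 49.1 CPM, and the 3 nearest non-cycling cells had 21.6, 19.3 and 14.1 CPM. Of the non-cycling cells, 51 had no Top2a read and 13 had reads below 25 CPM. Mki67, the proliferation antigen that marks cells outside the resting state, was at or above 25 CPM in 54 of 88 cycling cells (61.4%) and in 14 of 64 non-cycling cells (21.9%). At least 10 of the 37 listed genes of the G1/S transition and DNA replication were detected in 84 cycling and 31 non-cycling cells, and at least 5 of the 38 listed G2/M genes in 65 cycling and 12 non-cycling cells. The name "non-cycling" therefore means low Top2a: the group includes cells with transcripts of DNA replication, and 23 cycling cells had fewer than 5 G2/M genes. Ly6d itself was detected in 100, 90.6 and 100% of cycling cells on chips 4, 5 and 6, and in 93.3, 89.3 and 95.2% of non-cycling cells.

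Cycling cells showed more genes than non-cycling cells on each chip, while the exact test did not separate the states in depth. The median read count per cell was 958320 ± 39072 in cycling and 913300 ± 76916 in non-cycling cells (SD, n = 3 chips; exact sign-flip permutation test, two-sided p = 0.5, smallest possible 0.25). With each cell thinned to 200000 reads, 2964, 2758 and 2943 genes per cell reached 5 reads in cycling cells, against 2612, 2078 and 2554 in non-cycling cells. The mean excess of cycling cells was 474 genes (exact sign-flip permutation test, two-sided p = 0.25, the smallest that 3 chips allow). Non-cycling cells of chip 5 stood lowest, and 6 of those 28 cells had fewer than 1500 genes, against 1 of the 32 cycling cells of that chip and none on chips 4 and 6. The same cells showed 8.48, 7.59 and 8.32 of 28 listed B lineage genes in the cycling state, against 10.9, 10.1 and 11.5 in the non-cycling state, which is the opposite order (p = 0.25, the same exact test).

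**Figure D1:**
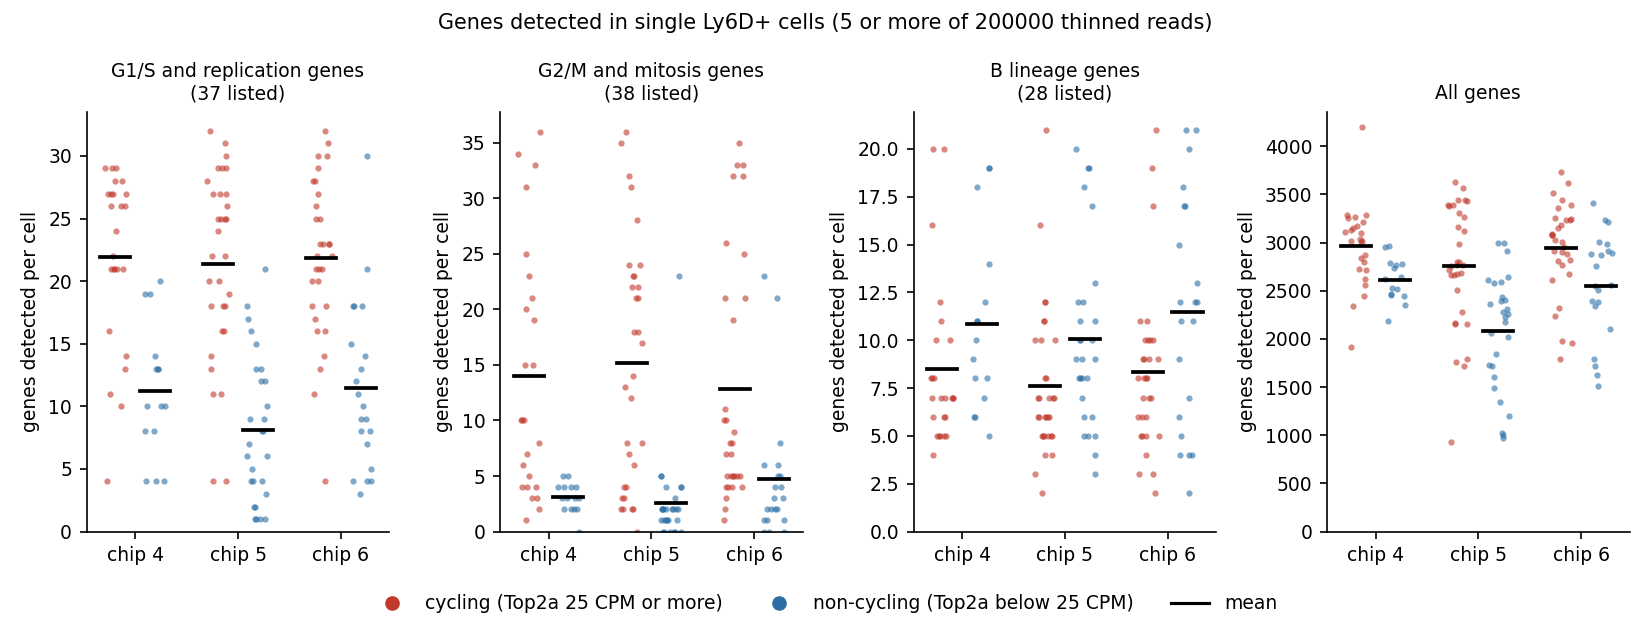
Each point is a Ly6D+ cell, in cycling (red) and non-cycling (blue) columns for each chip. The vertical axes count genes detected at 5 or more of 200000 thinned reads, from the G1/S, G2/M and B lineage lists and from all genes, and black bars are means. The bars of cycling cells lie above those of non-cycling cells in 3 panels and below them for B lineage genes (8.48, 7.59 and 8.32 against 10.9, 10.1 and 11.5).

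Most listed genes of DNA replication and mitosis, and 364 genes outside the division genes, were called higher in cycling cells, and 42 genes, 6 of them B lineage genes, were called lower, by a test on log-scale means in which every cell of a chip and state counts equally. Of 11860 genes tested, edgeR's quasi-likelihood test on read sums per chip and state called 0 (0.0%) at an adjusted p under 0.05. The smallest adjusted p was 0.0682, 731 genes had an unadjusted p under 0.05, and DESeq2 on the same sums called 578 genes higher and 180 lower. limma-trend, applied to the mean of log2(CPM + 1) over the cells of each chip and state, called 529 genes higher (4.46%) and 42 lower (0.354%) in cycling Ly6D+ cells. limma was planned as an alternative to edgeR and is followed here because edgeR called 0 genes. Below, "higher", "lower" and "called" refer to limma, and differences are cycling minus non-cycling on that scale with their standard errors. This scale combines how many cells show a gene with how much they show, and a whole-genome median of 0.19 stood above 0. The spread came from all 12 means of the Ly6D+ and TN chips: with the 6 Ly6D+ means alone limma called 0 genes, with a smallest adjusted p of 0.132 and 1799 genes at an unadjusted p under 0.05. The differences are the same in both fits, and the errors are not. Without chip 5 limma called 1.38% of genes higher and 23 genes lower, and without chip 6 it called 2.84% higher and 35 genes lower.

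Since Top2a chose the cells, genes that are made together with it were bound to follow, and the division genes are given as a description. Of the 364 division genes tested, 45.3% were called higher and 0 lower. They included 33 of 38 G2/M genes, 32 of 37 G1/S genes, 18 of 22 chromatin and tubulin genes and 14 of 22 genes of homologous repair. Rrm1, the large subunit of ribonucleotide reductase, was detected in 84, 81.2 and 74.2% of cycling cells and in 20, 42.9 and 47.6% of non-cycling cells, with no overlap (limma difference 4.67 ± 0.55, adjusted p = 0.00012). Pclaf, a PCNA-binding factor of DNA replication, had the smallest edgeR p. It averaged 611 ± 316 CPM in cycling and 21.5 ± 6.91 CPM in non-cycling sums (SD, n = 3 chips), an edgeR log2 fold change of 4.76 ± 0.48 with an adjusted p of 0.0682. It was detected in 80, 78.1 and 77.4% of cycling cells, against 13.3, 14.3 and 23.8% of non-cycling cells. Stil, which serves centriole duplication, was called higher as well (2.96 ± 0.43). Within cycling cells, the number of G2/M genes per cell followed Top2a (Spearman's rho 0.71, 0.78 and 0.62 over 25, 32 and 31 cells, which share their chip), while G1/S genes did so with rho of 0.01, 0.18 and 0.22.

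Promoter windows are shown for 5 genes that carry these results, 3 higher and 2 lower in cycling cells, to compare letters known from division gene promoters. The windows cover 250 bases before and 20 bases after the annotated start and come from RefSeq on build GRCm38.p6, which is not the build of the counts. Capitals mark GCGGGAA (an E2F-type motif), TTTGAA (the cell cycle homology region) and CCAAT, searched on both strands; the motifs share no letters here. Pclaf lies at chr9:65890073-65890342 on the plus strand, Rrm1 at chr7:102441445-102441714 on the plus strand, Kif23, a kinesin of cytokinesis, at chr9:61946780-61947049 on the minus strand, Cd79a at chr7:24897247-24897516 on the plus strand and Rag1 at chr2:101649513-101649782 on the minus strand.
Pclaf: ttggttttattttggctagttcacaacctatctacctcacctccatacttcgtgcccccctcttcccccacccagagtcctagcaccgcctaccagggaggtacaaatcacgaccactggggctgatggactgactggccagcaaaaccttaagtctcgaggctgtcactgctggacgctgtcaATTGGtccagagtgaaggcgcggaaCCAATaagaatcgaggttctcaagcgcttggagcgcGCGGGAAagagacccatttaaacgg
Rrm1: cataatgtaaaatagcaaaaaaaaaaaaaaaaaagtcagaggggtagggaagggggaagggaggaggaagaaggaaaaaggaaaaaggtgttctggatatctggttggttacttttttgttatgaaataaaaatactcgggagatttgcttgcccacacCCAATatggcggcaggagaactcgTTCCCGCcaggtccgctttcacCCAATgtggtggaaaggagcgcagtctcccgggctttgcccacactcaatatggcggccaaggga
Kif23: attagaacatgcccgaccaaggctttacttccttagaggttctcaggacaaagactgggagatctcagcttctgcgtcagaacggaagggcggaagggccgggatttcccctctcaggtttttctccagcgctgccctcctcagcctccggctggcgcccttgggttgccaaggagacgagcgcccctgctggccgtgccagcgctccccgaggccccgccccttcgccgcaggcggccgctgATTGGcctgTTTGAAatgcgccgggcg
Cd79a: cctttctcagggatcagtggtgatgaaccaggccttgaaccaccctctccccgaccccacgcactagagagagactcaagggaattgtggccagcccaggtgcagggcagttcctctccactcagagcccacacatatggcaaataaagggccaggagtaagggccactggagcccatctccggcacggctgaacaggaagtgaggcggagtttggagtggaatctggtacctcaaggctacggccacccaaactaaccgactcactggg
Rag1: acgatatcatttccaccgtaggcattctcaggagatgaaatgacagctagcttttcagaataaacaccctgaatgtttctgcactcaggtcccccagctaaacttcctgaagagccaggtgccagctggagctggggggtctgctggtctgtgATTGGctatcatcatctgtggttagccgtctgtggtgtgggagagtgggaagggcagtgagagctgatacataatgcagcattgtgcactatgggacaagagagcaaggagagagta
Pclaf and Rrm1 hold GCGGGAA and CCAAT, Kif23 holds CCAAT next to TTTGAA, Rag1 holds CCAAT, and Cd79a holds none of the 3 in this window. A RefSeq window was found for 80% of the division genes called higher, 83% of the other higher genes, 71.4% of the 42 lower genes and 79.1% of all 11860 genes tested. TTTGAA was found in 34.8% of these division genes, 15.9% of the other higher genes and 13.3% of the lower genes, against 11.4% of all genes tested. CCAAT was found in 68.2, 47.4 and 30%, against 37.7% of all. GCGGGAA was found in 18.2, 14.6 and 10%, against 8% of all. A match of letters is not a binding site.

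Of 27 listed B lineage genes tested, 6 were called lower in cycling Ly6D+ cells (0.354% of all genes were) and 0 higher, and 23 of the differences were negative. The median difference of the list was -0.97, beside 0.19 for all genes. They included Cd79a, Cd79b, Blnk, Pou2af1 and Mzb1. DESeq2 called Cd79a and Blnk, and edgeR called 0 of the 27.

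Cd79a (Entrez 12518), a signalling chain of the B cell receptor complex, had the largest difference of the 6. It was detected in 24, 25 and 25.8% of cycling cells on chips 4, 5 and 6, against 60, 50 and 52.4% of non-cycling cells. The cycling shares lay within a narrow range well below the lowest non-cycling share. Its mean log2(CPM + 1) was 2.48, 2.19 and 2.63 in cycling cells and 5.87, 5.1 and 5.1 in non-cycling cells, again without overlap. The limma difference was -2.92 ± 0.43 (adjusted p = 0.000593), and the edgeR log2 fold change was -1.67 ± 0.34 (adjusted p = 0.51). The limma call was lost with the 6 Ly6D+ means alone (adjusted p = 0.132) and was kept in the other 14 alternatives. Seen from the other side, 40, 36.4 and 42.1% of Cd79a-positive cells were cycling on chips 4, 5 and 6, against 76, 63.2 and 69.7% of Cd79a-negative cells. Within the cycling cells of chips 4, 5 and 6, Spearman's rho with Top2a was 0.13, -0.09 and 0.01 for Cd79a CPM. For the number of B lineage genes per cell rho was 0.14, 0.03 and 0.18, so neither measure fell steadily as Top2a rose within that group.

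Rag1 and Rag2, the 2 subunits of the V(D)J recombinase, were lower with it. Rag1 was detected in 24, 31.2 and 29% of cycling cells and in 46.7, 57.1 and 47.6% of non-cycling cells, without overlap (-2.15 ± 0.41, adjusted p = 0.00359). The edgeR log2 fold change of Rag1 was -1.75 (adjusted p = 0.888), and DESeq2 did not call it either (adjusted p = 0.367). Rag2 was not called lower by edgeR or DESeq2. Rag2 was detected in 20, 18.8 and 32.3% of cycling cells and in 46.7, 50 and 33.3% of non-cycling cells. The Rag2 shares were nearly equal on chip 6, and its difference was -1.75 ± 0.48 (adjusted p = 0.0384). Either gene was present in 36, 31.2 and 45.2% of cycling cells, against 60, 71.4 and 57.1% of non-cycling cells, so cells with Rag transcripts were found in both states on every chip. Rag2 lost its call without chip 4 (adjusted p = 0.0978) and without chip 5 (0.278). Among cells with 2000 to 3500 detected genes, Rag1 had a difference of -1.74 (adjusted p = 0.0998) and Cd79a one of -2.44 (0.0281).

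Other called genes of the list act in B cell receptor signalling, immunoglobulin assembly or transcription. Blnk, the adaptor that links the receptor kinase Syk to downstream enzymes, was found in 56, 43.8 and 41.9% of cycling cells, against 93.3, 64.3 and 42.9% of non-cycling cells. The Blnk groups overlapped, chip 6 showed almost the same share in both states, and the call (-1.94 ± 0.54, adjusted p = 0.042) was lost without chip 4 (adjusted p = 0.221) or chip 5 (0.17). Cd79b, the partner of Cd79a, was found in 24, 34.4 and 35.5% of cycling and 33.3, 53.6 and 66.7% of non-cycling cells (-1.94 ± 0.52, adjusted p = 0.0352). Its call was lost without chip 5 or chip 6 (adjusted p of 0.148 and 0.228). Mzb1, a chaperone of immunoglobulin assembly, and Pou2af1, a coactivator of octamer-binding factors, had differences of -1.91 ± 0.48 and -0.60 ± 0.16; without single chips the adjusted p reached 0.143 for Mzb1 (chip 4) and 0.134 for Pou2af1 (chip 5). Ebf1 was found in 40, 37.5 and 38.7% of cycling cells, against 53.3, 35.7 and 57.1% of non-cycling cells, and did not pass (-1.49 ± 0.45, adjusted p = 0.0591). The surrogate light chain genes Vpreb1 (-1 ± 0.34, 0.0983) and Igll1 (-0.92 ± 0.32, 0.104) did not pass either.

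**Figure D2:**
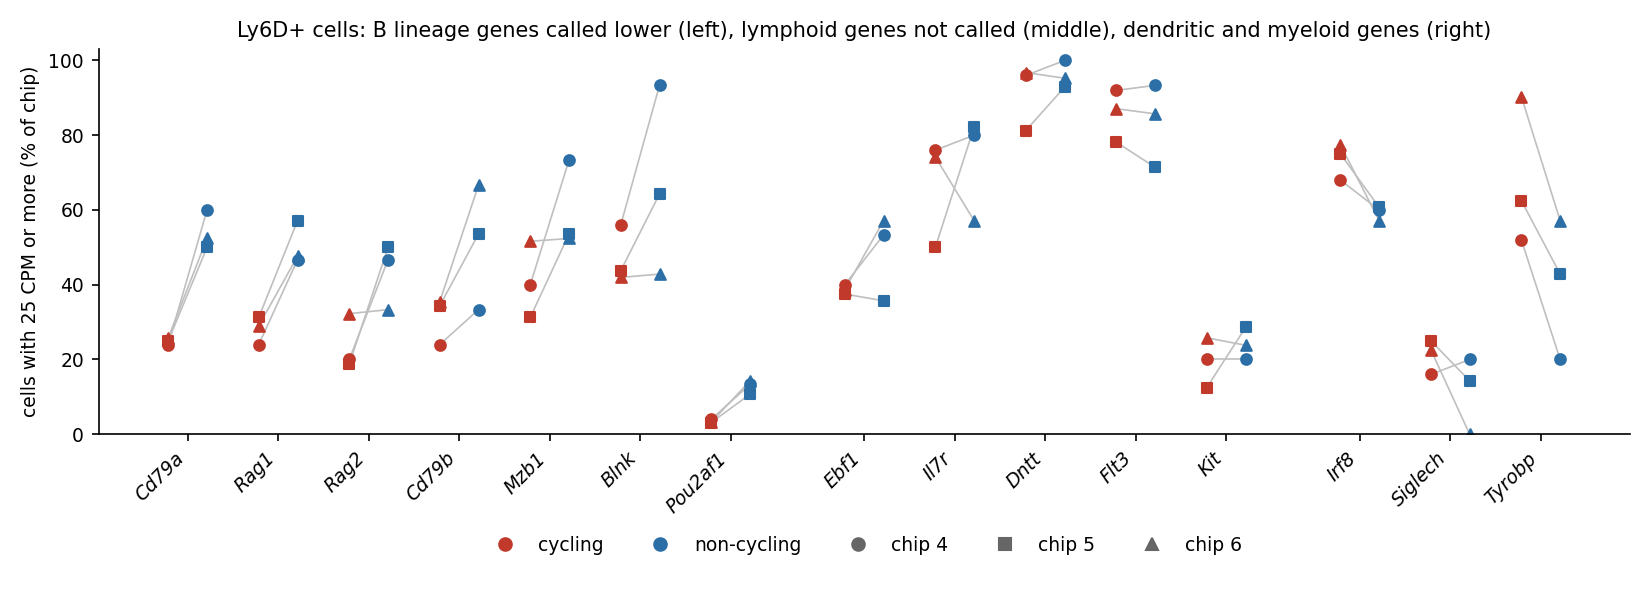
The vertical axis gives the percentage of Ly6D+ cells with 25 CPM or more of a gene on each chip, cycling cells in red on the left of each pair and non-cycling cells in blue on the right, with lines joining the states of 1 chip. Cd79a lies at 24 to 25.8% in cycling cells and at 50 to 60% in non-cycling cells, while Dntt, Flt3 and Kit overlap.

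In the early lymphoid list, 4 of 21 tested genes were called lower (Rag1, Rag2, Gimap4 and Gimap3) and 0 higher, with a median of -0.26. Of these 21 genes edgeR called 0, and DESeq2 called 0 lower and 1 higher. Over all genes, 0.354% were called lower. Dntt, the template-free polymerase of receptor gene joints, was detected in 96, 81.2 and 96.8% of cycling and 100, 92.9 and 95.2% of non-cycling cells (-0.71 ± 0.54, adjusted p = 0.496). Gimap4, a GTPase of lymphocytes, was lower (-2.10 ± 0.52, adjusted p = 0.0213; 0.12 without chip 4 and 0.054 without chip 5), though its shares overlapped, with 56, 43.8 and 45.2% of cycling and 80, 53.6 and 52.4% of non-cycling cells. In the list of recombination and end joining, 3 of 19 genes were lower: besides the Rag genes this was Xrcc6, the Ku70 protein that binds broken DNA ends (-1.61 ± 0.42, adjusted p = 0.0327). Xrcc6 lost its call whichever chip was left out (adjusted p of 0.105 to 0.124) and with Mki67 in place of Top2a (0.0754). The 2 that were higher, Hmgb1 and Hmgb2, are chromatin proteins that are also in the chromatin list.

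Of 30 tested genes in the list of growth factor and cytokine receptors, 0 were called in either direction (median -0.08), beside 4.46% of all genes called higher and 0.354% lower. Flt3 was found in 92, 78.1 and 87.1% of cycling cells and in 93.3, 71.4 and 85.7% of non-cycling cells (-0.41 ± 0.43, adjusted p = 0.645). Il7r was found in 76, 50 and 74.2% of cycling and 80, 82.1 and 57.1% of non-cycling cells, with chips 5 and 6 in opposite order (-0.92 ± 0.65, 0.458). Kit was seen in 20, 12.5 and 25.8% of cycling and 20, 28.6 and 23.8% of non-cycling cells (-0.47 ± 0.48, 0.642). A p that misses the threshold does not show that the states were alike. Lists of 14 T, NK and innate lymphoid genes, 16 stem cell genes, 36 lymphoid transcription factors, 26 chemokine receptor and homing genes and 9 Notch pathway genes held no called gene.

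Dendritic and myeloid genes are read beside the 4.46% of all genes called higher. Of 21 plasmacytoid dendritic genes tested, 0 were called and 17 had positive differences, with a median of 0.67. Irf8, a transcription factor of dendritic cells and monocytes, was detected in 68, 75 and 77.4% of cycling cells and in 60, 60.7 and 57.1% of non-cycling cells. Those shares did not overlap, but the difference did not pass (1.41 ± 0.43, adjusted p = 0.0593). Siglech, a surface marker of plasmacytoid dendritic cells, was present in 16, 25 and 22.6% of cycling cells. Among non-cycling cells it was present in 20 and 14.3% on chips 4 and 5 and in 0 of 21 cells on chip 6, which allows a share of up to 14.3% (0.83 ± 0.39, adjusted p = 0.238). Of 25 myeloid genes, Tyrobp, an adaptor of myeloid and NK receptors (1.63 ± 0.43, adjusted p = 0.031), and Lgals1, a galectin (1.84 ± 0.50, 0.0388), were higher. Both lost their calls without chip 5 (0.101 for Tyrobp and 0.335 for Lgals1) or chip 6 (0.145 and 0.186). Non-overlapping shares of cells were common: over all tested genes, 13.1% had higher and 2.32% lower shares in cycling cells on all 3 chips than on any chip of the other state.

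Of 30 tested genes of nucleotide synthesis and folate-dependent carbon transfer, 7 were called higher in cycling cells and 0 lower, where 4.46% of all genes were called higher, and the list's median was 1.17. They were Psat1, Dck, Dctpp1, Gmps, Pfas, Ppat and Gart. Psat1, an aminotransferase of serine synthesis, was detected in 56, 37.5 and 51.6% of cycling cells, against 13.3, 14.3 and 38.1% of non-cycling cells (2.56 ± 0.47, adjusted p = 0.00267). Dck, the kinase that salvages deoxycytidine, was detected in 64, 71.9 and 51.6% of cycling and 40, 28.6 and 23.8% of non-cycling cells without overlap (2.55 ± 0.49, 0.00362). Dctpp1, which hydrolyses dCTP, was detected in 68, 68.8 and 61.3%, against 33.3, 25 and 33.3% (2.57 ± 0.50, 0.00444). Gmps, Pfas, Ppat and Gart are enzymes of purine synthesis, with differences of 1.74, 1.85, 1.78 and 2.15. Without chip 5 Dck and Dctpp1 lost their calls (adjusted p of 0.0583 and 0.0767). With Mki67 at 25 CPM in place of Top2a, Psat1, Dck and Dctpp1 were not called (0.147, 0.0531 and 0.174). Each of the 4 purine genes lost its call without chip 5 (0.0696 for Gmps, 0.135 for Pfas, 0.149 for Ppat and 0.215 for Gart).

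Genes of energy metabolism are given beside the 4.46% of all genes called higher. In glycolysis, 4 of 19 genes were higher (Ldha, Tpi1, Pkm and Pgam1) and the median was 0.66. Ldha, lactate dehydrogenase A, was found in 84, 87.5 and 96.8% of cycling and 86.7, 64.3 and 61.9% of non-cycling cells (1.81 ± 0.46, adjusted p = 0.0277). Its order was reversed on chip 4, and the call was lost without chip 5 (adjusted p = 0.184) or chip 6 (0.254). Tpi1, Pkm and Pgam1 lost their calls without chip 5 (0.134, 0.265 and 0.15) or chip 6 (0.0835, 0.195 and 0.179). In the tricarboxylic acid cycle, 2 of 22 genes were higher: Ogdh, a subunit of the 2-oxoglutarate dehydrogenase complex (2.55 ± 0.54, 0.00827), and Idh3b, a subunit of isocitrate dehydrogenase (2.37 ± 0.53, 0.0124). Ogdh lost its call without chip 5 (0.0932) or chip 6 (0.0875) and Idh3b without chip 6 (0.135), and neither was called with Mki67 in place of Top2a (0.116 and 0.397). All 22 differences were positive, with a median of 1.22. In oxidative phosphorylation 0 of 29 were called, although 26 were positive (median 0.85). The edgeR log2 fold changes on read sums gave smaller medians: 0.16 for the tricarboxylic acid cycle, 0.21 for oxidative phosphorylation and 0.46 for nucleotide synthesis, beside 0.16 for all genes. In cells with 2000 to 3500 genes the limma medians were 0.61, 0.56 and 0.80, beside 0.12 for all genes; the part of the higher gene number of cycling cells in these medians was not tested.

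**Figure D3:**
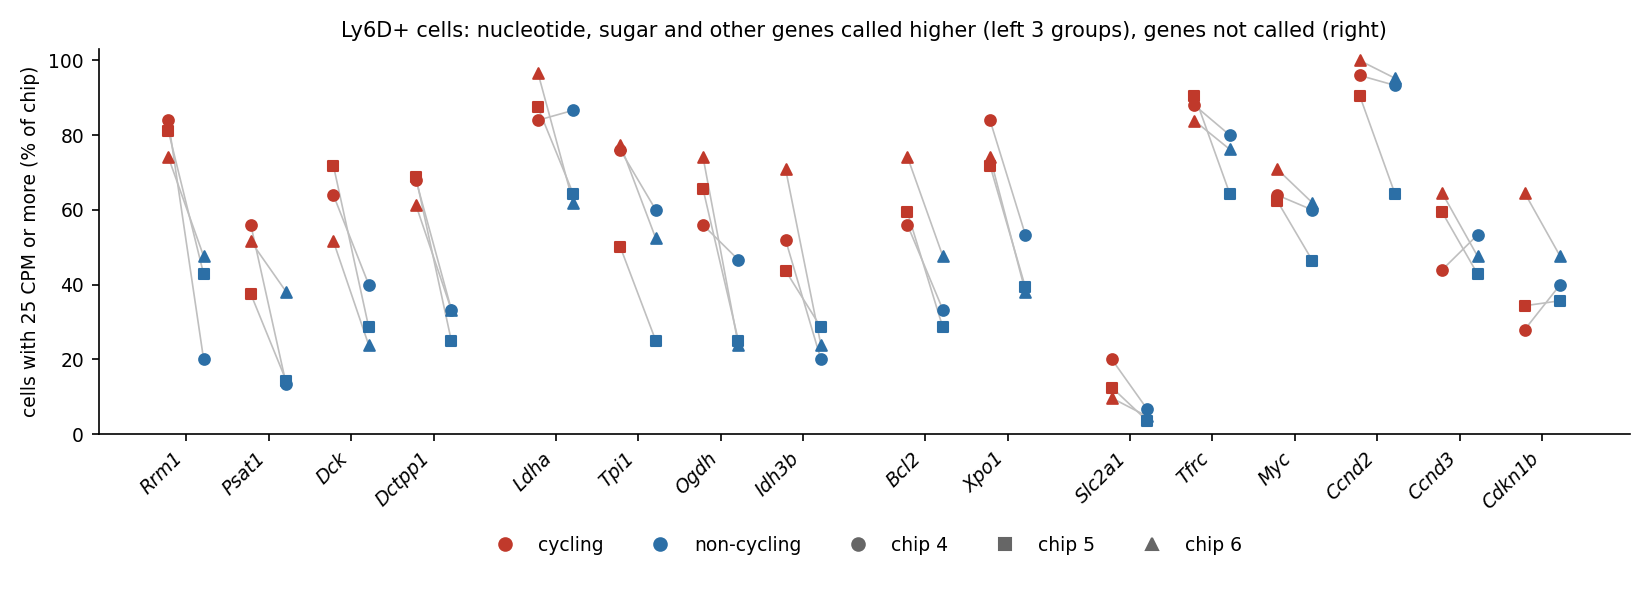
The vertical axis gives the percentage of Ly6D+ cells with 25 CPM or more of a gene on each chip, cycling on the left of each pair. Dctpp1 lies at 61.3 to 68.8% in cycling and 25 to 33.3% in non-cycling cells, and Ccnd3 and Cdkn1b overlap.

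Other transport and synthesis genes were called singly, which in lists of this size is near the 4.46% of all genes called higher. Slc25a5, the mitochondrial exchanger of ADP and ATP, was the called gene among 15 transporters (1.5 ± 0.3, adjusted p = 0.00588), and Nop56, a nucleolar protein of ribosomal RNA processing, among 22 ribosome biogenesis genes (1.90 ± 0.50, 0.0324). Both lost their calls without chip 5 (0.106 for Slc25a5 and 0.217 for Nop56) or chip 6 (0.0695 and 0.101), and Slc25a5 also with Mki67 in place of Top2a (0.0632). Slc2a1, the glucose transporter, was found in 20, 12.5 and 9.7% of cycling and 6.7, 3.6 and 4.8% of non-cycling cells and did not pass (0.66 ± 0.33, 0.264). Tfrc, the transferrin receptor, was found in 88, 90.6 and 83.9% of cycling and 80, 64.3 and 76.2% of non-cycling cells (1.23 ± 0.46, 0.129). Xpo1, the nuclear exporter, had 428 ± 96.6 CPM in cycling and 160 ± 39.2 CPM in non-cycling sums (SD, n = 3 chips) and was higher by limma (3.2 ± 0.44, adjusted p = 0.000379). Mbnl3, a splicing regulator, was higher too (3.01 ± 0.51, 0.00152).

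Of 32 listed genes that govern entry into the cell cycle, 2 were called higher, near the 4.46% of all genes: the pocket protein Rbl1 (1.69 ± 0.48, adjusted p = 0.0488) and the transcription factor E2f2 (1.04 ± 0.26, 0.0238). The median of the list was 0.07. Both lost their calls whichever chip was left out (adjusted p of 0.0831 to 0.187 for Rbl1 and 0.0612 to 0.132 for E2f2). Ccnd2, the D-type cyclin of lymphoid cells, was found in 96, 90.6 and 100% of cycling and 93.3, 64.3 and 95.2% of non-cycling cells (0.84 ± 0.59, 0.457). Ccnd3, which later B cell precursors need in order to expand, was found in 44, 59.4 and 64.5%, against 53.3, 42.9 and 47.6% (0.61 ± 0.51, 0.555). The inhibitor Cdkn1b (0.23 ± 0.49), the antiproliferative genes Btg1 (-0.02 ± 0.32) and Btg2 (-0.07 ± 0.34), the quiescence factor Klf2 (0.03 ± 0.44) and Myc (0.77 ± 0.48) did not pass. Of 18 survival genes 2 were higher, among them Bcl2, the antiapoptotic founder of its family (2.36 ± 0.49, adjusted p = 0.00714). Bcl2 was found in 56, 59.4 and 74.2% of cycling and 33.3, 28.6 and 47.6% of non-cycling cells. Its limma call was lost without chip 5 (adjusted p = 0.0891) and with Mki67 in place of Top2a (0.0644).

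Several genes outside the lists were lower with the B lineage genes. Tcp11l2 was taken for its small edgeR p in these same data, and the others were picked after their values were seen. Tcp11l2 averaged 27.7 ± 19.1 CPM in cycling and 310 ± 77.4 CPM in non-cycling sums (SD, n = 3 chips), with detection in 8, 9.4 and 12.9% of cycling and 33.3, 25 and 42.9% of non-cycling cells (limma -2.43 ± 0.41, adjusted p = 0.00143). Tspan32, a tetraspanin of blood cells, was found in 28, 15.6 and 22.6% of cycling and 53.3, 60.7 and 57.1% of non-cycling cells (-2.82 ± 0.49, 0.00179). Trp53inp1, a p53-induced protein of the stress response, was found in 24, 28.1 and 29%, against 53.3, 46.4 and 57.1% (-2.29 ± 0.45, 0.00491). Kdm5b, a demethylase of histone H3, was lower as well (-2.18 ± 0.45, 0.00626), a call that was lost without chip 5 (adjusted p = 0.0782). With Mki67 at 25 CPM in place of Top2a, limma called none of Tcp11l2, Tspan32, Trp53inp1 and Kdm5b (adjusted p of 0.069, 0.108, 0.0919 and 0.101). Smap2, Macf1 and Atp1b3 were among the lower genes with the smallest edgeR p, but none was called by either test.

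Markers of erythroid cells, of neutrophils, and of megakaryocytes, mast cells and basophils were scarce in both states. Summed over the list, erythroid genes reached 23.3 to 95 CPM in cycling and 69.9 to 346 CPM in non-cycling cells, with 10 of 13 at 0. Neutrophil genes reached at most 0.133 CPM in cycling and 1.88 CPM in non-cycling cells (7 of 10 at 0), and megakaryocyte, mast cell and basophil genes at most 21.3 and 55.5 CPM (6 of 10 at 0). Plasma cell genes, which include Mzb1, summed to 228 to 330 CPM in cycling and 381 to 512 CPM in non-cycling cells, with 2 of 7 at 0. Conventional dendritic and MHC class II genes summed to 1715 to 2134 CPM in cycling and 1882 to 4020.5 CPM in non-cycling cells. Of 19 tested members of that list 0 were called, with a median difference of 0.06. T, NK and innate lymphoid genes summed to 1088 to 1558 CPM in cycling and 1147 to 1811 CPM in non-cycling cells. B lineage genes themselves summed to 3247 to 4970 CPM in cycling and 6832 to 8535 CPM in non-cycling cells. The part of these other cells in the B lineage difference was not tested.

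The share of cycling cells on Ly6D+ and TN chips did not differ beyond the spread between chips. It was 62.5, 53.3 and 59.6% on the Ly6D+ chips and 57.3, 63.8 and 63.8% on the TN chips, with means of 58.5 ± 4.69% and 61.6 ± 3.72% (SD, n = 3 chips each; exact permutation test, two-sided p = 0.5, smallest possible 0.1). With Mki67 at 25 CPM as the rule the shares were 45.4 ± 5.04% and 61.5 ± 0.74%, without overlap (exact p = 0.1, the smallest possible). Each chip held cells of 1 population, so chip and population cannot be told apart in these shares.

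TN chip 2 differed from the other chips in the sex of the mice: Xist, which is expressed from the inactive X chromosome of females, was detected in 25 of 44 cycling and 16 of 25 non-cycling cells there and in 0 cells of the other 5 chips, and Y-linked genes in 15 cycling and 2 non-cycling cells of chip 2, none of them with Xist. In TN cells the same contrast called 1801 genes higher (15.2%) and 46 lower (0.388%), with a median over all genes of 0.37. Of the 529 genes higher in Ly6D+ cells, 400 were also higher in TN cells, where 15.2% of all genes were. Of the 42 lower genes, 0 were also lower in TN cells, where 0.388% of all genes were. That share is so small that the count of 0 does not tell the populations apart. The B lineage list had a median of -0.97 in Ly6D+ cells and 0.01 in TN cells, where 2 of the 27 genes were higher and 0 lower. Cd79a was found in 1.5% of cycling and 1.3% of non-cycling TN cells on average (difference 0.01), and Rag1 in 0.8 and 2.4%, so both genes were rare in either state of TN cells. The test of the difference between populations called 0 genes with edgeR (smallest adjusted p 0.509, 467 genes at an unadjusted p under 0.05), 328 with DESeq2 and 1 with limma (0.00843%), the surface receptor gene Cd93. For Cd79a that difference was -2.93 (adjusted p = 0.24) and for Rag1 -2.01 (0.38). Of 30 nucleotide synthesis genes, 7 were called higher in Ly6D+ cells (median 1.17) and 20 in TN cells (median 2.12). Of 29 oxidative phosphorylation genes, 0 were called in Ly6D+ cells (median 0.85) and 19 were higher in TN cells (median 1.43).

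**Figure D4:**
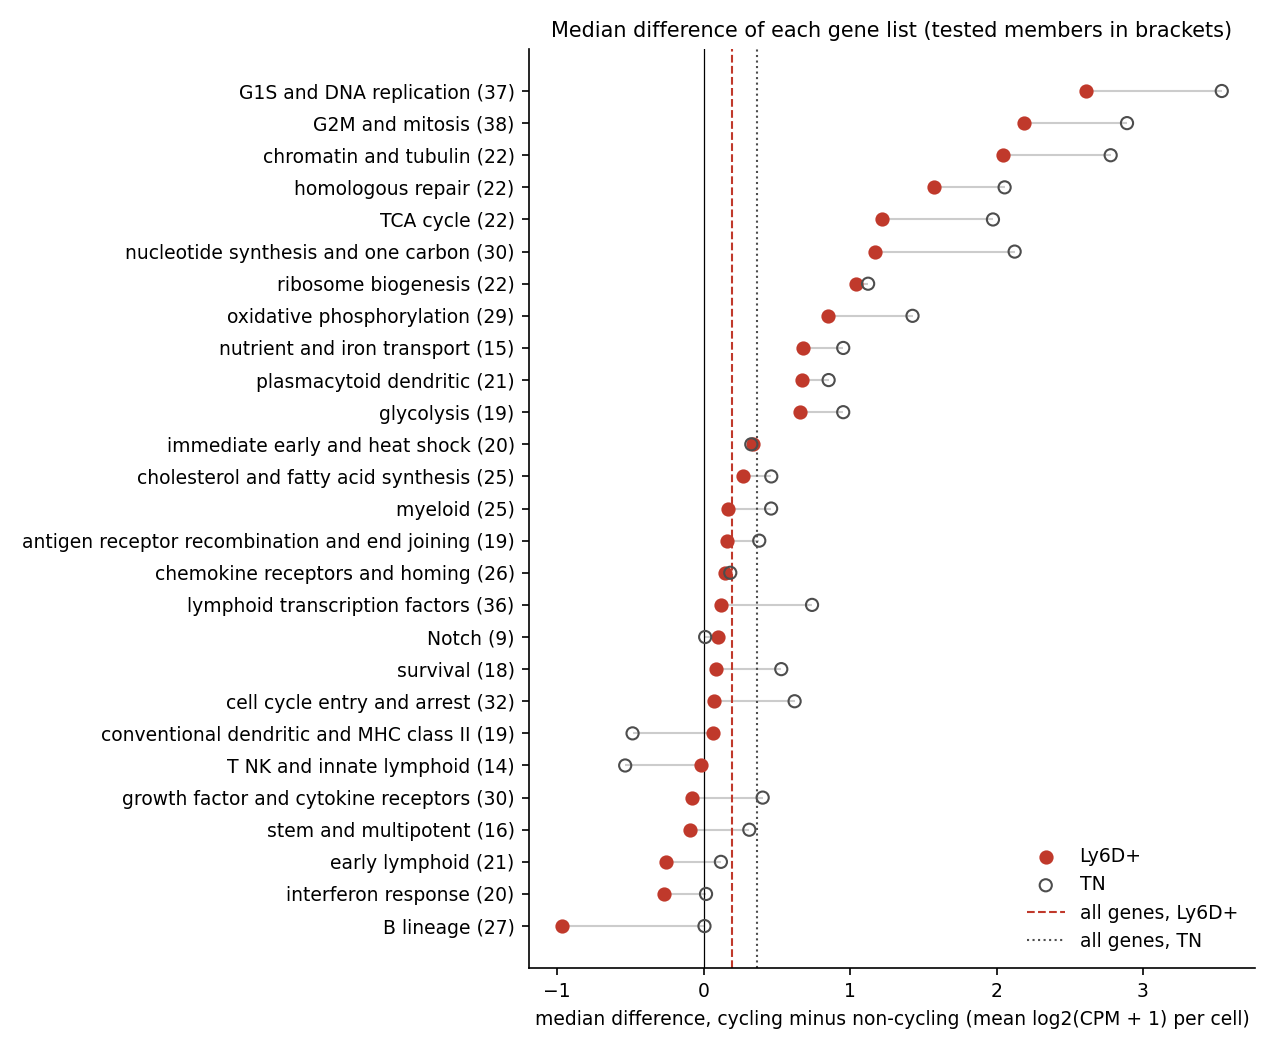
The horizontal axis gives the median difference between cycling and non-cycling cells over the tested members of each list (number in brackets), for Ly6D+ cells as filled and TN cells as open circles, with vertical lines at the medians of all genes (0.19 and 0.37). The B lineage list lies lowest in Ly6D+ cells (-0.97) and near 0 in TN cells.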

How the data were processed

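Read counts per gene and cell were deposited by the authors without normalisation, and every cell of the table was used. Per the labels' protocols, polyadenylated RNA of single cells was captured on C1 chips and amplified over its full length with SMARTer chemistry, which carries no molecular identifiers and does not mark the strand. The submitters' processing notes name build mm9 and R 3.2.0; no source used here names the aligner or the counting program. Symbols for 23334 of 23427 genes came from RefSeq (GRCm38.p6); the other rows held 0.906% of reads and stayed out of the tests. Cells had 267852 reads or more.

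The replicate was the chip, 3 per population. The labels do not say which mice were on which chip. TN chip 2 held cells with Xist and the others did not, and for the Ly6D+ chips nothing tells the mice apart. With chip as a block, gene p-values rest on how the difference between states within a chip varied over the 6 Ly6D+ and TN chips. That spread includes which cells were captured and is possibly technical. No p-value here measures spread between known animals. Both states of a chip come from the same capture run, and chip was a block in the main fit. Counts were summed per chip and state (12 sums) and tested with edgeR 4.0.16 (quasi-likelihood, TMM, filterByExpr), and also with DESeq2 1.42.0 and with limma 3.58.1 (limma-trend on means of log2(CPM + 1)), in R 4.3.3. In the main edgeR and limma fits, gene p-values were adjusted over 11860 genes (Benjamini-Hochberg, threshold 0.05). Alternatives were adjusted over the genes that each one tested, and DESeq2 gave no adjusted p for 690 genes. Top2a was counted as called in no test. It was left out of the edgeR and limma adjustment, except where Mki67 chose the cells and Mki67 was left out in its place. A gene was detected in a cell at 25 CPM. Tests were checked on simulated data.

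Members, lists and the rule for named genes were chosen with earlier results of these data known. The rule named up to 12 called genes per direction outside division genes that changed by a log2 fold of 1 or more in size, with the same direction on 3 chips and detection in 20% of cells, up to 8 division genes, up to 3 genes per list, and 36 fixed genes. Because edgeR called none, the 6 with the smallest edgeR p in each direction were taken, and genes called by limma were named after their values were seen. No source used here states how doublets were handled, and none were called. Some called genes are not reported here.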

Additional observations from a re-analysis of the deposited data

Results flagged for a closer look

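Cd93, which encodes a surface receptor of early B lineage and myeloid progenitors, was the gene whose cycling effect differed between Ly6D+ and TN cells by limma's interaction test. In Ly6D+ cells it was detected in 96, 93.8 and 96.8% of cycling and 100, 89.3 and 90.5% of non-cycling cells, a difference of 0.23 ± 0.36. In TN cells it was detected in 86.3% of cycling and 50% of non-cycling cells on average, a difference of 3.63. The difference between the populations was -3.40 (adjusted p = 0.0193), and edgeR's interaction test did not call it (log2 difference -0.53, adjusted p = 1).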

How the results depend on the processing

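The edgeR count of 0 called genes became 1 with no filter on low counts, with cells under 1500 genes left out, with thinned cells and with cells of 2000 to 3500 genes, and 2 where Top2a and Mki67 agreed. It became 758 with DESeq2 and 571 with limma, and stayed at 0 to 0 with each Ly6D+ chip left out. The edgeR count for the difference between populations (0) became 328 with DESeq2 and 1 with limma. The 4.46% of genes higher by limma became 2.5% with a pseudocount of 10 CPM, 0.608% with no filter, 0% with the 6 Ly6D+ means alone, 2.27% with Mki67 choosing the cells and 1.33% in cells of 2000 to 3500 genes, and 1.38 to 4.55% with each chip left out. The count of 42 lower genes became 10 with no filter, 0 with the 6 Ly6D+ means alone and 81 with Top2a at 10 CPM. It became 26 with Mki67 choosing the cells, 66 where both markers agreed and 9 in cells of 2000 to 3500 genes. With each chip left out it was 23 to 44. Of the original 42, only 8 were called again with Mki67 choosing the cells, so most of those 26 were other genes. With no replicate block limma called 3.24% higher and 43 genes lower, and edgeR 0; same-numbered states share a chip by the labels. All 42 lower genes kept a negative difference in every limma alternative except 1 of them with Mki67 choosing the cells; with the 6 Ly6D+ means alone the differences are the same by construction. The difference in the share of cycling cells, -3.14 percentage points for Ly6D+ minus TN, became -16.1 with Mki67 at 25 CPM and lay between -5.29 and -0.57 with each chip left out. The difference in detected genes per cell, 474, lay between 371 and 535 with each chip left out. For the causes, fewer chips and fewer cells follow from how some alternatives are built; the others were not tested. The limma alternatives, and those that joined both markers or kept cells of 2000 to 3500 genes, were chosen after seeing the data. With 3 chips and 15 to 32 cells per chip and state, genes seen in few cells have large errors.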

Other observations

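When Mki67 at 25 CPM, in place of Top2a, chose the cycling Ly6D+ cells, the B lineage genes gave the following values by limma. Cd79a differed by -2.88 (adjusted p = 0.000419), Rag1 by -2.30 (0.0114), Rag2 by -1.94 (0.0103) and Ebf1, not called with Top2a, by -2.46 (0.00585). Blnk (adjusted p = 0.0614), Cd79b (0.136), Mzb1 (0.197) and Pou2af1 (0.503), which were called with Top2a, were not called with Mki67. The same cells are reused under this rule, so these values are not independent of those above. In cells where both markers gave the same state, Irf8 differed by 2.61 (adjusted p = 0.0238) and Siglech by 1.67 (0.0487), while Flt3 differed by -0.20 (0.882). Neither Irf8 (adjusted p = 0.0593 with Top2a and 0.0807 with Mki67) nor Siglech (0.238 and 0.0665) was called with 1 marker alone.

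Some genes with known roles outside the lists were called by limma and were picked after their values were seen. Lifr, a subunit of the receptor for leukaemia inhibitory factor, was detected in 28, 43.8 and 16.1% of cycling and 6.7, 25 and 4.8% of non-cycling Ly6D+ cells (1.8 ± 0.41, adjusted p = 0.0142). Slc18a2, the vesicular monoamine transporter, was detected in 40, 31.2 and 29%, against 13.3, 10.7 and 4.8% (2.33 ± 0.48, 0.00609). Sh2d5, an SH2 domain adaptor, was detected in 52, 37.5 and 54.8%, against 93.3, 78.6 and 81% (-2.59 ± 0.48, 0.00289), and its difference between Ly6D+ and TN cells was -3.84 (adjusted p = 0.094). Without chip 5 the adjusted p was 0.062 for Lifr and 0.0594 for Sh2d5, and without chip 4 it was 0.0686 for Lifr. With Mki67 in place of Top2a, limma called none of Lifr, Slc18a2 and Sh2d5 (adjusted p of 0.137, 0.0615 and 0.136).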
